A study of Sus scrofa with 6 samples.

Results

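The genes examined here carry the insulin signal from the cell surface to glucose uptake in skeletal muscle. They are *INSR*, *IRS1*, *IRS2*, *AKT2*, *TBC1D1*, *TBC1D4*, *SLC2A4*, *HK1* and *HK2*. They were chosen as a list of symbols, and all 9 were found among the 30476 Ensembl pig genes of the count table and passed the filter on low counts. RNA-seq was performed on longissimus dorsi, a muscle of the back, from 3 UCP1 KI pigs and 3 WT pigs, each 6 months old, with 1 library per pig. UCP1 KI pigs carry a CRISPR/Cas9 knock-in of *UCP1*, the uncoupling protein of thermogenic fat, with expression directed to adipocytes, so the muscle fibres themselves are not the cells targeted. WT pigs lack this knock-in. The sources used here give neither the sex of the pigs nor whether they were littermates or shared a founder clone. Nothing in them states that the libraries of a group came from separate litters or sampling days, so p values measure the spread between these pigs alone. *UCP1* was not analysed here, and the genotype was therefore not checked against its own counts.

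Insulin binds its receptor, INSR, which phosphorylates the adaptor proteins IRS1 and IRS2. These recruit PI3-kinase, whose lipid product leads to activation of the kinase AKT2. AKT2 phosphorylates TBC1D4 and TBC1D1, Rab GTPase-activating proteins that otherwise hold vesicles of the glucose transporter GLUT4, encoded by *SLC2A4*, inside the cell. Once GLUT4 has reached the membrane and glucose has entered, a hexokinase, HK1 or HK2, phosphorylates the sugar and so traps it. Skeletal muscle is the main site of insulin-stimulated glucose disposal, and HK2 is the hexokinase characteristic of insulin-sensitive muscle, whereas HK1 is found in nearly all cell types.

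To determine which steps differed in mRNA level, counts were compared between UCP1 KI and WT pigs with edgeR. Levels are given as CPM, counts per 1000000 of a library's total after TMM scaling. Calls needed a log2 fold change beyond 0.5 in either direction together with a p under 0.05 before adjustment. *HK2* was the 1 gene of the 9 that was called, and it was higher in UCP1 KI pigs, by 3.60-fold. Among the 13402 genes tested 8.19% were called in the same comparison (8.21% with no fold limit and 9.77% with DESeq2, both of which also called *HK2* alone of the 9), so 1 of 9 is near that background. The other 8 genes, from the receptor to the transporter, had log2 fold changes between -0.41 and 0.51. Over the 9 genes the median log2 fold change was 0.18, beside -0.02 over all genes tested. The ranges of the groups overlapped for each of the 9 genes, while 15.3% of all genes tested had no overlap. No gene of the 9 had an adjusted p under 0.05, the smallest being 0.583 for *HK2* with edgeR. Across all genes edgeR gave 0 at that level and 1100 at an unadjusted p under 0.05. DESeq2 gave 127 adjusted calls, 0.948% of the genes, of which 0 were among the 9.

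The libraries held between 30220951 and 35066624 counts, and the 9 genes were counted between 178 and 4480 times in each pig, so that counting error alone was at most 7.5% of a value. The 20 most abundant genes took 39.1% to 44.0% of the counts in UCP1 KI pigs and 44.5% to 56.5% in WT pigs, with the maximum in WT replicate 2. The part of this difference in the results was not tested. With scaling by library size only, the median over all genes shifted upwards by 0.25 on the log2 scale, and log2 fold changes of the 9 genes relative to that median were within 0.084 of those with TMM. The labelled tissue was checked by *ACTA1*, skeletal muscle actin, at 30310 to 55970 CPM, and by *CKM*, muscle creatine kinase, at 5748 to 11990 CPM.

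**Figure D1:**
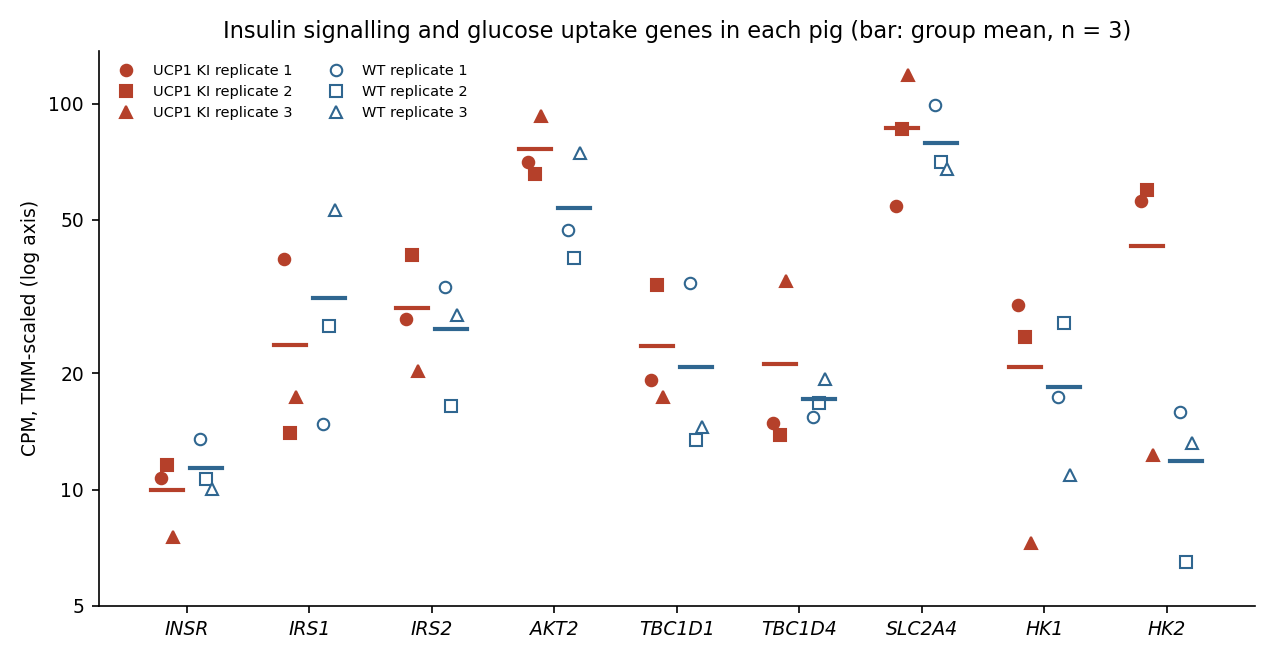
CPM of each of the 9 genes (log axis) in 3 UCP1 KI pigs (filled) and 3 WT pigs (open), with marker shape giving the replicate number and bars the group mean. *HK2* stands at 55.9 and 59.9 CPM in UCP1 KI replicates 1 and 2 and at 12.3 CPM in replicate 3, while the groups overlap for all 9 genes. Heights are comparable within a gene only, since CPM is not corrected for transcript length.

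*INSR* (ENSSSCG00000013566; RefSeq span on Sscrofa11.1 chromosome 2, 71797209 to 71939923) encodes the receptor itself. It was measured at 10.7, 11.6 and 7.52 CPM in UCP1 KI replicates 1 to 3 and at 13.5, 10.7 and 10.01 CPM in WT replicates 1 to 3. UCP1 KI replicate 3 was the lowest pig and WT replicate 1 the highest, and the remaining 4 pigs lay close together. *INSR* averaged 9.95 ± 2.14 CPM against 11.4 ± 1.88 CPM (mean ± SD, n = 3 pigs each). UCP1 KI against WT, this was a log2 fold change of -0.20 ± 0.27 (standard error; edgeR, adjusted p = 0.860), and its 95% interval ran from a fold of 0.564 to 1.35. A doubling or a halving of *INSR* mRNA thus lay outside the interval. The log2 fold change was -0.33 on removal of UCP1 KI replicate 2, -0.03 on removal of UCP1 KI replicate 3 and -0.06 on removal of WT replicate 1. In a bulk sample such as this, fewer cells of a type and less RNA per cell cannot be told apart.

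*IRS1* (ENSSSCG00000025729; chromosome 15, 128245846 to 128307321), the adaptor most closely tied to metabolic insulin action in muscle, varied more between pigs of 1 group than between the groups. It stood at 39.7, 14.0 and 17.4 CPM in UCP1 KI replicates 1 to 3 and at 14.8, 26.5 and 53.1 CPM in WT replicates 1 to 3. Each group thus held a pig with low and a pig with high *IRS1*. With 23.7 ± 13.9 CPM on average in the knock-in and 31.5 ± 19.6 CPM in the wild type (mean ± SD, n = 3 each), the log2 fold change came to -0.41 ± 0.55 (standard error; edgeR, adjusted p = 0.857). Leaving out WT replicate 3, the pig with the most *IRS1*, turned it to 0.20. *IRS2* (ENSSSCG00000034763; chromosome 11, 76626158 to 76654639) encodes the second adaptor, whose transcription is repressed by insulin through FoxO factors. Its levels were 27.7, 40.5 and 20.2 CPM in UCP1 KI replicates 1 to 3 and 33.5, 16.4 and 28.3 CPM in WT replicates 1 to 3. The ranges coincided over most of their length, with a log2 fold change of 0.18 ± 0.36 (standard error; edgeR, adjusted p = 0.905) and an interval from 0.635-fold to 2.01-fold. The sign turned on removal of UCP1 KI replicate 2 (-0.13) or of WT replicate 2 (-0.07).

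*AKT2* (ENSSSCG00000002989; chromosome 6, 48555785 to 48620472), the AKT isoform required for insulin-stimulated glucose uptake, had the second largest fold change of the 9 genes. Levels were 70.7, 65.7 and 92.9 CPM in UCP1 KI replicates 1 to 3 and 47.1, 39.9 and 74.4 CPM in WT replicates 1 to 3. WT replicate 3 lay above UCP1 KI replicates 1 and 2, and the other WT pigs lay below every UCP1 KI pig. Averages of 76.4 ± 14.4 CPM and 53.8 ± 18.2 CPM (mean ± SD, n = 3 each) differed 1.42-fold, or 0.51 ± 0.30 on the log2 scale (standard error; edgeR, unadjusted p = 0.132, adjusted p = 0.680). *AKT2* was called without WT replicate 3, at a log2 fold change of 0.81. None of the other fits that left out 1 pig called it, and the lowest value was 0.33, without WT replicate 2.

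*TBC1D1* (ENSSSCG00000028983; chromosome 8, 29370344 to 29590574), a Rab GTPase-activating protein, was high in 1 pig of each group. It was at 19.2, 34.0 and 17.4 CPM in UCP1 KI replicates 1 to 3 and at 34.3, 13.4 and 14.5 CPM in WT replicates 1 to 3. UCP1 KI replicate 2 and WT replicate 1 differed from one another by less than 1 CPM and stood well above the other 4 pigs. For *TBC1D1* the groups differed by 0.18 ± 0.44 on the log2 scale (standard error; edgeR, adjusted p = 0.923). The value was -0.20 without UCP1 KI replicate 2, -0.06 without WT replicate 2, -0.02 without WT replicate 3 and 0.74 without WT replicate 1. *TBC1D4* (ENSSSCG00000009464; chromosome 11, 47543808 to 47760928), also named AS160 for its place as an AKT substrate, was even in 5 pigs and high in the sixth. Levels were 14.9, 13.9 and 34.8 CPM in UCP1 KI replicates 1 to 3 and 15.4, 16.7 and 19.4 CPM in WT replicates 1 to 3. UCP1 KI replicate 3 was thus 2.51 times UCP1 KI replicate 2, whereas the WT pigs spanned 1.26-fold. The groups differed by 0.30 ± 0.38 on the log2 scale (standard error; edgeR, adjusted p = 0.844), which became -0.25 without UCP1 KI replicate 3.

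*SLC2A4* (ENSSSCG00000023915; chromosome 12, 52628746 to 52634965) encodes GLUT4, the transporter that insulin brings to the surface of muscle fibres and adipocytes. It was measured at 54.5, 85.8 and 118.7 CPM in UCP1 KI replicates 1 to 3 and at 99.3, 70.8 and 67.8 CPM in WT replicates 1 to 3. The WT pigs all lay within the span of the UCP1 KI pigs. *SLC2A4* averaged 86.3 ± 32.1 CPM against 79.3 ± 17.4 CPM (mean ± SD, n = 3 each), a log2 fold change of 0.12 ± 0.33 (standard error; edgeR, adjusted p = 0.929). The 95% interval of the fold reached from 0.639 to 1.85, and the sign changed, to -0.18, without UCP1 KI replicate 3. *INSR* and *SLC2A4*, at the start of the chain and at its transport step, were the 2 genes whose interval excluded a 2-fold change in either direction.

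**Figure D2:**
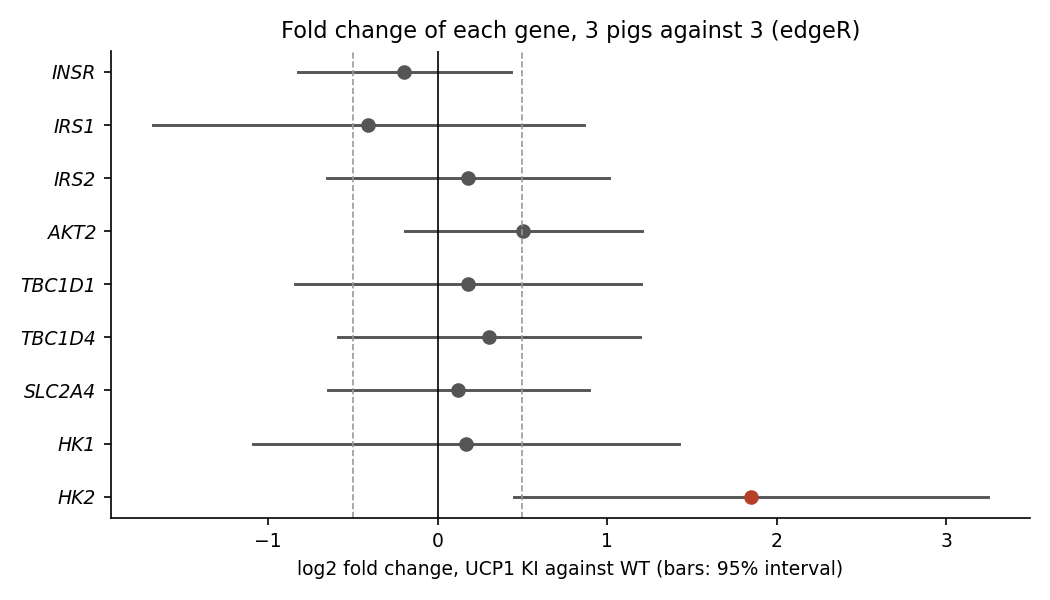
Log2 fold change of each gene, UCP1 KI against WT (points), with its 95% interval from edgeR (bars, 3 pigs against 3); the solid line marks no change and dashed lines mark the limits at -0.5 and 0.5. The interval of *HK2*, from 0.45 to 3.25, is the 1 interval that does not include 0, and that of *INSR* is the narrowest.

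*HK1* (ENSSSCG00000010253; chromosome 14, 72383328 to 72460927), the widely expressed hexokinase, spanned 4.14-fold within the UCP1 KI group. It stood at 30.2, 24.8 and 7.28 CPM in UCP1 KI replicates 1 to 3 and at 17.4, 27.1 and 10.9 CPM in WT replicates 1 to 3. Replicate 3 was the lowest pig of each group. The log2 fold change of 0.17 ± 0.54 (standard error; edgeR, adjusted p = 0.940) was -0.20 without UCP1 KI replicate 1, -0.10 without WT replicate 3 and 0.57 without UCP1 KI replicate 3. The summed level of 5 endothelial markers, among them *PECAM1* and *CDH5*, was 519, 552.1 and 304.4 CPM in UCP1 KI replicates 1 to 3 and 518.3, 430.1 and 270.9 CPM in WT replicates 1 to 3. This sum was likewise lowest in replicate 3 of each group, though *TEK*, of the same list, was lowest in replicate 1 of the UCP1 KI group (38.3, 50.6 and 46.1 CPM in replicates 1 to 3). The sum's part in the *HK1* values was not tested. *HKDC1*, the neighbouring hexokinase gene, was counted 12 times in WT replicate 3 and 0 times in the other pigs. Its reads were thus few beside those of *HK1*.

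*HK2* (ENSSSCG00000008261; chromosome 3, 68155656 to 68231187), the muscle hexokinase whose transcription rises with insulin and with contraction, rose in UCP1 KI pigs. Its levels were 55.9, 59.9 and 12.3 CPM in UCP1 KI replicates 1 to 3 and 15.9, 6.5 and 13.2 CPM in WT replicates 1 to 3. UCP1 KI replicates 1 and 2 were more than 3 times the highest WT pig, and UCP1 KI replicate 3 lay among the WT pigs. *HK2* averaged 42.7 ± 26.4 CPM against 11.9 ± 4.82 CPM (mean ± SD, n = 3 each). This was a log2 fold change of 1.85 ± 0.60 (standard error; edgeR, unadjusted p = 0.0162, adjusted p = 0.583), and its interval ran from 1.37-fold to 9.49-fold. DESeq2 gave 1.85 with an unadjusted p of 0.00202 and an adjusted p of 0.118. By a two-sided exact permutation test of log2(CPM + 1), which cannot go below p = 0.1 with 3 pigs against 3, the difference had p = 0.3. The call was lost without UCP1 KI replicate 2 (1.53, unadjusted p = 0.0552, edgeR) and without WT replicate 2 (1.55, unadjusted p = 0.0518, edgeR), and the log2 fold change was 2.29 without UCP1 KI replicate 3. Only 18.7% of the genes tested had a higher dispersion between pigs than *HK2*, beside 22.1% for *IRS1* and 74.9% for *INSR*.

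To compare the 2 genes of a step without any scaling of libraries, the log2 ratio of their read counts was taken within each pig. The ratio of *HK2* to *HK1* was 0.89, 1.27 and 0.76 in UCP1 KI replicates 1 to 3 and -0.14, -2.06 and 0.28 in WT replicates 1 to 3. Each UCP1 KI pig was above each WT pig. In UCP1 KI replicate 3 this went with the lowest *HK1* of all pigs, at 7.28 CPM, while its *HK2*, at 12.3 CPM, was below that of WT replicates 1 and 3. The ratio averaged 0.97 ± 0.27 and -0.64 ± 1.25 (mean ± SD, n = 3 each), a difference of 1.61 on the log2 scale (exact permutation test, two-sided, p = 0.1, the smallest possible). Without WT replicate 2 the difference was 0.90. In read counts, *HK2* took 64.9%, 70.7% and 62.8% of the reads of both genes in UCP1 KI replicates 1 to 3 and 47.6%, 19.4% and 54.9% in WT replicates 1 to 3. Exact 95% binomial intervals, which cover counting error only, put the lowest UCP1 KI share at 59.2% to 66.3% and the highest WT share at 51.1% to 58.5%. These shares are of reads and depend on transcript length, so they rank pigs but not the 2 enzymes.

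The ratio of *IRS1* to *IRS2* did not separate the groups. It was 0.52, -1.53 and -0.22 in UCP1 KI replicates 1 to 3 and -1.18, 0.69 and 0.91 in WT replicates 1 to 3 on the log2 scale, averaging -0.41 ± 1.04 and 0.14 ± 1.15 (mean ± SD, n = 3 each). The difference of -0.55 had p = 0.5 in the two-sided exact permutation test and was 0.009 without UCP1 KI replicate 2. It was -1.21 without WT replicate 1. For *TBC1D1* to *TBC1D4* the log2 ratio was 0.37, 1.29 and -1.002 in UCP1 KI replicates 1 to 3 and 1.16, -0.32 and -0.42 in WT replicates 1 to 3. It differed by 0.08 between the group means (two-sided exact permutation test, p = 0.9), far less than the spread within a group, and its sign turned on removal of UCP1 KI replicate 2 (-0.46) or of replicate 2 (-0.15) or 3 (-0.20) of the WT group. With p values adjusted over the 3 ratios the smallest was 0.3.

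**Figure D3:**
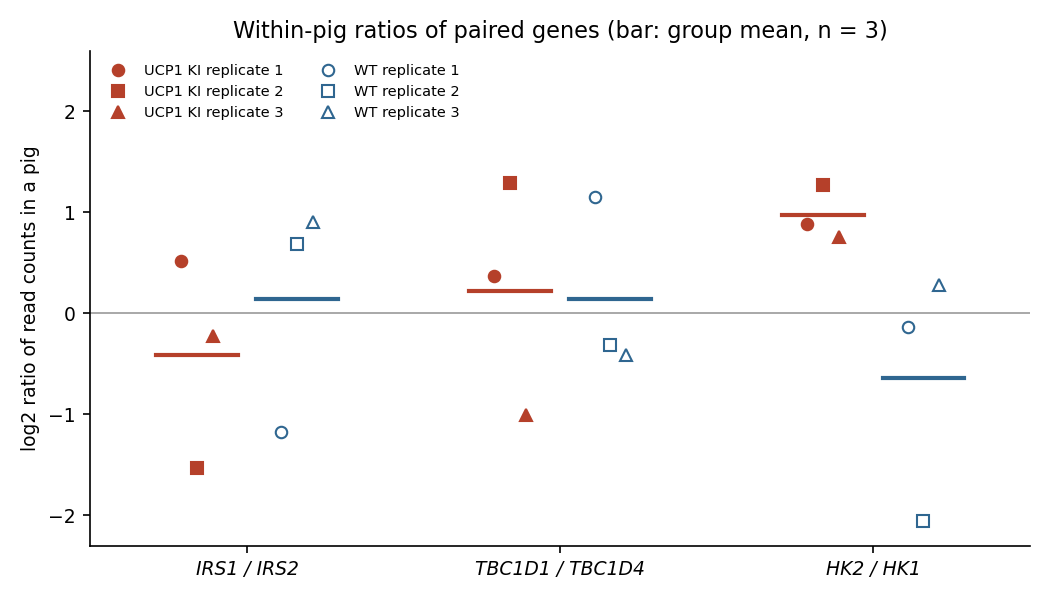
Log2 ratio of read counts within each pig for *IRS1* to *IRS2*, *TBC1D1* to *TBC1D4* and *HK2* to *HK1*, with 3 UCP1 KI pigs (filled), 3 WT pigs (open) and bars for the group means. The *HK2* to *HK1* ratio is the 1 ratio in which all UCP1 KI pigs (lowest 0.76) lie above all WT pigs (highest 0.28).

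No pig was high or low for the whole chain. UCP1 KI replicate 3 was the highest pig for *AKT2*, *TBC1D4* and *SLC2A4* and the lowest for *INSR* and *HK1*. UCP1 KI replicate 2 was highest for *IRS2* and *HK2* and lowest for *IRS1* and *TBC1D4*. WT replicate 2 was highest for 0 of the 9 genes and lowest for 4, namely *IRS2*, *AKT2*, *TBC1D1* and *HK2*. WT replicate 2 is also the library in which the 20 most abundant genes took the largest share of counts.

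Pigs differed in genes of slow and fast muscle fibres, and the order of pigs in *IRS1*, *IRS2* and *TBC1D1* is given beside these. Slow fibres are oxidative and fast fibres largely glycolytic, and both kinds occur in longissimus dorsi. The summed level of 6 slow fibre genes, such as *MYL2* and *TNNT1*, was 12820, 10800 and 7419 CPM in UCP1 KI replicates 1 to 3 and 17910, 4338 and 5645 CPM in WT replicates 1 to 3. That of 5 fast fibre genes, such as *TNNT3* and *ACTN3*, was 46060, 14330 and 46160 CPM in UCP1 KI replicates 1 to 3 and 28500, 72250 and 74350 CPM in WT replicates 1 to 3. The groups overlapped for both sums, and 0 genes of either list were called. The sums leave out the myosin heavy chain genes *MYH7*, *MYH1*, *MYH2* and *MYH4*, which were not analysed here. The fast sum was 1.33 times the slow sum in UCP1 KI replicate 2 and 1.59 times in WT replicate 1, compared with 3.59 to 16.7 times in the other 4 pigs. Those 2 pigs had the 2 highest levels of *TBC1D1* and of *IRS2* and the 2 lowest levels of *IRS1*. They also had the 2 highest levels of *INSR*, at 11.6 CPM in UCP1 KI replicate 2 and 13.5 CPM in WT replicate 1. For *AKT2*, *TBC1D4*, *SLC2A4*, *HK1* and *HK2* these pigs were neither the 2 highest nor the 2 lowest. At the other end, WT replicate 2 had the largest ratio of fast to slow genes and the lowest *TBC1D1* and *IRS2*, while its *IRS1*, at 26.5 CPM, was below that of WT replicate 3 and UCP1 KI replicate 1. The part of fibre-type genes in these levels was not tested.

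**Figure D4:**
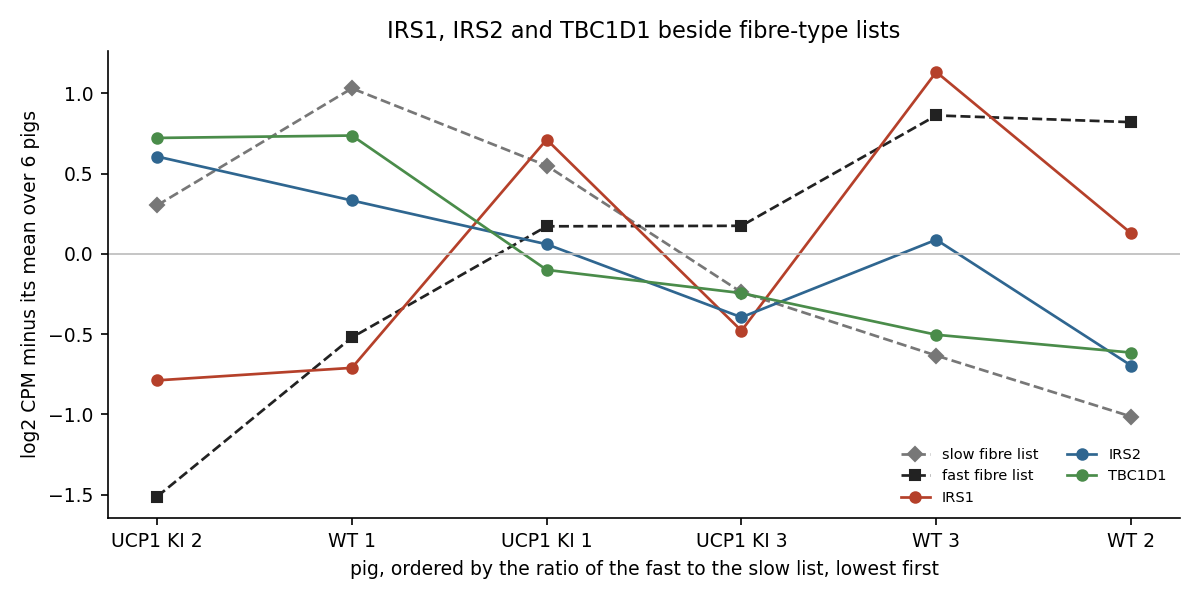
Log2 CPM of *IRS1*, *IRS2* and *TBC1D1* and of the summed slow and fast fibre genes in each of the 6 pigs, each minus its own mean, with pigs ordered by the ratio of fast to slow genes. *TBC1D1* lies at 0.72 and 0.74 in UCP1 KI replicate 2 and WT replicate 1, the 2 pigs with the lowest ratio, where *IRS1* lies at -0.79 and -0.71.

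Around the 9 genes, 88 further genes of the pathway were listed by role, of which 80 could be tested. PIK3CA, a catalytic subunit of PI3-kinase, and the transcription factors FOXO1 and FOXO3, which AKT keeps out of the nucleus, were among 6 genes called higher in UCP1 KI pigs, and 1 gene was called lower. The 7 called genes are 8.75% of those tested, close to the 8.19% over all genes. By direction, 7.5% of the 80 genes were called higher, where 3.84% of all genes were, and 1.25% were called lower, where 4.34% of all genes were. The median log2 fold change of the 80 genes was 0.13. Of the 80 genes, 20% had no overlap between the groups, where 15.3% of all genes did. With library size only, 14 of the 80 genes (17.5%) were called, all 14 of them higher, where 8.39% of all genes were called and 6.93% were called higher. That scaling moved the share of higher calls among all called genes from 46.9% to 82.7%. Of the remaining 8 listed genes, 6 were not analysed here and 2 were under the count filter.

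Between receptor and AKT, *PIK3CA* (ENSSSCG00000030413) was at 17.8, 30.6 and 17.6 CPM in UCP1 KI replicates 1 to 3 and at 10.9, 6.43 and 8.51 CPM in WT replicates 1 to 3. Each UCP1 KI pig was above each WT pig, by a mean 2.55-fold (log2 1.35 ± 0.33, standard error; edgeR, unadjusted p = 0.00370, adjusted p = 0.558). Its adjusted p with DESeq2 was 0.0385. *PIK3CA* was called with each pig left out, at log2 fold changes of 1.03 to 1.55. It was the 1 gene called among 9 tested PI3-kinase subunits and lipid phosphatases, 6 of them higher by sign and 3 lower. *PIK3CB*, another catalytic subunit, went the other way, at -1.15 (unadjusted p = 0.0584, edgeR), with each UCP1 KI pig below each WT pig. Its nearest pigs were almost level, at 1.96 and 1.97 CPM. *PIK3CB* was called with DESeq2 and on removal of replicate 1 or 3 of the WT group. A further catalytic subunit, *PIK3CD*, was at 1.24 (unadjusted p = 0.170, edgeR). Of 14 receptor-level regulators, *PTPRF*, a receptor tyrosine phosphatase that can dephosphorylate INSR, fell. Its levels were 2.01, 1.71 and 1.43 CPM in UCP1 KI replicates 1 to 3 and 4.30, 4.05 and 2.04 CPM in WT replicates 1 to 3, where the nearest pigs of the groups were almost level. The log2 fold change of *PTPRF*, -1.01 (unadjusted p = 0.0338, edgeR), passed the limits in 1 of the 6 fits with a pig left out, that without WT replicate 3, and lay between -1.28 and -0.83 over all 6. It was -0.78 and not called with library size only (unadjusted p = 0.120, edgeR).

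Among 16 regulators of AKT, *MAPKAP1*, a subunit of the mTORC2 complex that phosphorylates AKT, and *PPP2R1A*, the scaffold of the phosphatase PP2A, rose. *MAPKAP1* was at 28.0, 52.3 and 32.3 CPM in UCP1 KI replicates 1 to 3 and at 18.9, 12.1 and 26.4 CPM in WT replicates 1 to 3. *PPP2R1A* was at 126.9, 137.3 and 188.9 CPM in UCP1 KI replicates 1 to 3 against 98.8, 94.4 and 99.98 CPM in WT replicates 1 to 3. Both had no overlap between the groups, with log2 fold changes of 0.97 and 0.63 (edgeR, unadjusted p = 0.0298 and 0.0334). *MTOR*, *RICTOR* and *PDPK1*, which code for further kinases and partners that act on AKT, had log2 fold changes of 0.18, -0.36 and 0.15 and were not called. Among 22 genes of GLUT4 traffic, *ASPSCR1*, whose product TUG tethers GLUT4 vesicles inside the cell, was called at a log2 fold change of 0.58 and an unadjusted p of 0.0498 (edgeR). It stood at 54.1, 50.8 and 71.9 CPM in UCP1 KI replicates 1 to 3 and at 33.6, 37.1 and 47.5 CPM in WT replicates 1 to 3. *MAPKAP1* was no longer called when UCP1 KI replicate 2 (0.65) or either replicate 1 (0.96) or 2 (0.73) of the WT group was left out. The call of *PPP2R1A* needed UCP1 KI replicate 3 (0.43 without it) and each of the WT pigs (0.60 to 0.65). *ASPSCR1* dropped out on removal of replicate 1 or 3 of the UCP1 KI group (0.64 and 0.42), or of replicate 1 or 2 of the WT group (0.47 and 0.54).

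*FOXO1* (ENSSSCG00000009370) rose 2.29-fold, from 21.1, 27.8 and 38.4 CPM in WT replicates 1 to 3 to 46.3, 68.0 and 85.6 CPM in UCP1 KI replicates 1 to 3. The groups did not overlap, and *FOXO1* was called with each pig left out, at log2 fold changes of 0.98 to 1.45. Its unadjusted p was 0.00683 and its adjusted p 0.583 with edgeR. *FOXO3* rose 1.78-fold, from 35.6, 28.2 and 45.8 CPM in WT replicates 1 to 3 to 48.3, 84.0 and 63.3 CPM in UCP1 KI replicates 1 to 3. The unadjusted p of *FOXO3* was 0.0233 with edgeR, and it was no longer called on removal of UCP1 KI replicate 2 (log2 fold change 0.60) or of replicate 1 or 2 of the WT group (0.81 and 0.68). *IRS2* and *INSR*, known targets of FoxO factors, were not among the called genes. Of 11 tested glucose transporters, hexokinases and their partners, 0 were called. *TXNIP*, an inhibitor of glucose uptake that responds to glucose, had the smallest p of these, with 279.8, 360.4 and 643.7 CPM in UCP1 KI replicates 1 to 3 and 238.0, 261.4 and 281.4 CPM in WT replicates 1 to 3. The groups overlapped in *TXNIP* by UCP1 KI replicate 1 alone (log2 fold change 0.72, unadjusted p = 0.0753, edgeR). Removal of UCP1 KI replicate 1 brought *TXNIP* to 0.95 (unadjusted p = 0.0345, edgeR), past the limits, and removal of UCP1 KI replicate 3, its highest pig, brought it to 0.30 (unadjusted p = 0.320, edgeR).

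**Figure D5:**
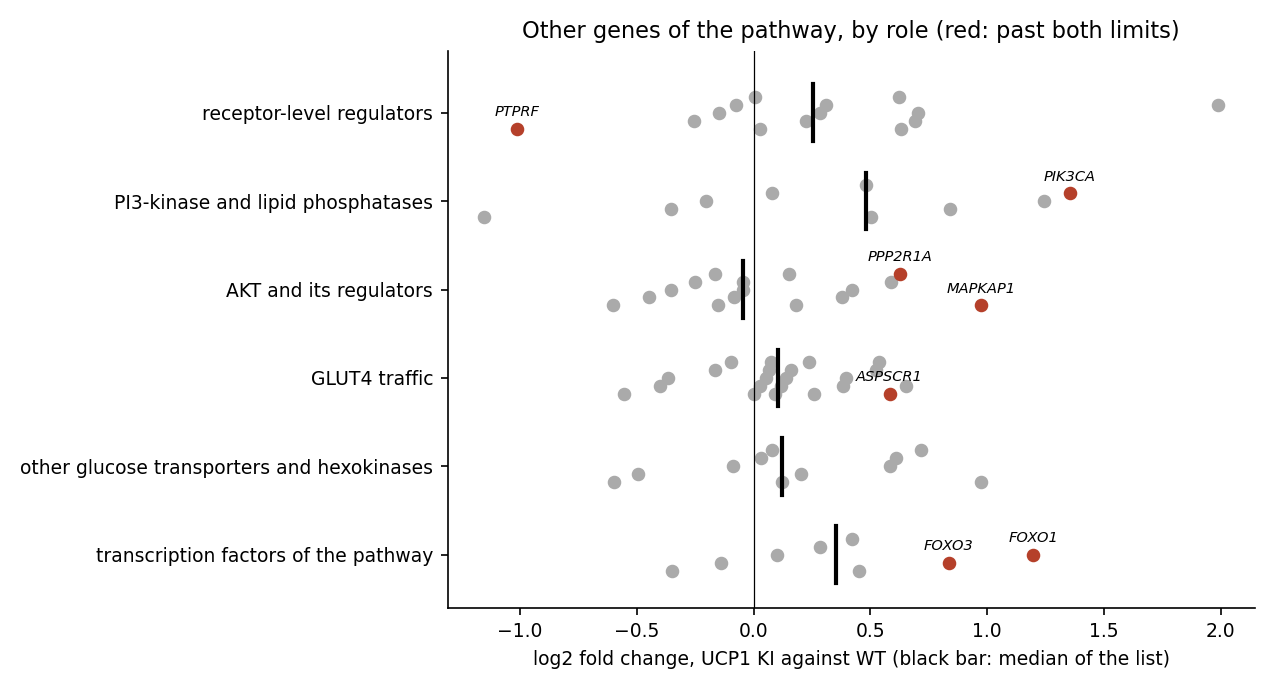
Log2 fold change, UCP1 KI against WT, of 80 further genes of the pathway grouped by role, with called genes in red and named and black bars for the median of each list. *PIK3CA* at 1.35 and *FOXO1* at 1.20 lie farthest to the right among the called genes, and *PTPRF* at -1.01 is the 1 called gene to the left.

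Markers of other cells that the muscle sample could hold were summed in 7 lists, and for 2 of these the groups did not overlap. The summed level of 6 fibroblast genes was 201.6 to 371.9 CPM in UCP1 KI pigs and 582.9 to 935.3 CPM in WT pigs, with 4 genes called lower. These were *COL1A1*, *COL3A1*, *LUM* and *FAP*. The collagen gene *COL3A1* alone was at 49.25 to 187.7 CPM in UCP1 KI pigs and at 333.9 to 552.5 CPM in WT pigs. *PDGFRA* and *DCN*, of the same list, had log2 fold changes of -0.08 and -0.39 and were not called (unadjusted p = 0.8255 and 0.139, edgeR). Fewer fibroblasts and less collagen mRNA per cell cannot be told apart here. For 5 red blood cell genes the sum was 11.6 to 76.5 CPM in UCP1 KI pigs and 105.6 to 181.1 CPM in WT pigs. Nearly all of this was *HBB*, at 11.3 to 74.8 CPM in UCP1 KI pigs and 103.3 to 177.5 CPM in WT pigs. *HBB* was not called (log2 fold change -1.29, unadjusted p = 0.0795, edgeR). The 1 gene called lower, *HBM*, was at only 0.20 to 1.02 CPM. The sums of the adipocyte, endothelial, leukocyte, Schwann cell and satellite cell lists overlapped. Within these, the leukocyte list held 2 genes called higher, *CD2* and *CD3E*, and the endothelial list 1, *TEK*. Leukocyte genes summed to 36.5, 63.8 and 19.4 CPM in UCP1 KI replicates 1 to 3, against 24.0, 33.1 and 18.8 CPM in WT replicates 1 to 3. Like *HK2*, this sum was highest in UCP1 KI replicates 1 and 2. Next in the sum came WT replicate 2, at 33.1 CPM, the pig with the lowest *HK2*. Adipocyte genes summed to 60.6 to 207.8 CPM in UCP1 KI pigs and 70.9 to 362 CPM in WT pigs, with 0 called. Each marker with an identifier had counts in at least 1 pig, and between 3 and 7 markers of a list had one. The part of these cells in the levels of *HK2*, *PIK3CA* and *FOXO1* was not tested.

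The genes whose profile over the 6 pigs was most like that of each of the 9 genes were found by the root mean square difference of log2(CPM + 1), each profile centred on its mean, among 5688 genes with a symbol and a mean of at least 10 CPM. *MYOM3*, a sarcomere M-band protein, was the closest to *HK2*, at a difference of 0.28, followed by the chaperones *HSPA5* at 0.39 and *SERPINH1* at 0.44. *MYOM3* stood at 165.7, 213 and 47.5 CPM in UCP1 KI replicates 1 to 3 and at 33.6 to 48.6 CPM in WT pigs. For *IRS1* the closest was *ENO3*, the enolase of glycolysis in muscle, at 0.28, and for *TBC1D1* it was *SPTBN1*, a spectrin, at 0.11. *ENO3* had 8014, 2403 and 4021 CPM in UCP1 KI replicates 1 to 3 and 3172, 7848 and 9022 CPM in WT replicates 1 to 3. The closest genes were *HLX* for *INSR* (0.05), *HABP4* for *IRS2* (0.08), *KLC2* for *AKT2* (0.04), *PGPEP1* for *TBC1D4* (0.13), *NCK1* for *SLC2A4* (0.12) and *IGFBP4* for *HK1* (0.17). None of the 3 closest genes of any of the 9 was itself one of the 9. These distances describe 6 libraries, shrink for genes that vary little, and carry no test.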

How the data were processed

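Paired-end mRNA libraries of longissimus dorsi were made and sequenced by a service company. According to the paper's methods and the submitters' processing notes, reads were checked with FastQC 0.11.2, trimmed with Trimmomatic 0.36 and mapped with HISAT2 2.0 to Sscrofa11.1, and StringTie 1.3.3b, bedtools 2.26.0 and DESeq2 1.12.4 were also used. The program that counted reads, the annotation release and the use of strand are not given in the sources used here. The authors deposited raw counts per gene for 30476 identifiers, without normalization, in 1 column per pig, and 0 columns belonged to other samples. Totals of 30220951 to 35066624 counts limit precision by counting error only.

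The comparison was computed with edgeR 4.0.16 in R 4.3.3 (filterByExpr, TMM, quasi-likelihood F test, group as the only term, two-sided), with Benjamini-Hochberg adjustment over all 13402 genes tested. The standard error is the log2 fold change divided by the square root of F, and 95% intervals use the t distribution with the fit's degrees of freedom. Within-pig ratios used counts plus 0.5. Procedures were tested on simulated data. The members, lists, limits and tests were chosen with earlier results of these data known. Named genes are all 9 members, pathway genes past both limits or else the gene with the smallest p in a list, and the 3 genes nearest to each member, of which the nearest is printed for all and 3 for *HK2*. Genes singled out otherwise were chosen after their values were seen. Alternatives were median-of-ratios factors, library size only, upper quartile factors, DESeq2 1.42.0, all genes with any count, a minimum of 10 counts per pig, a block for replicate number, leaving out single pigs, no fold limit, adjusted p, and other pseudocounts. Ensembl pig names gave the symbols, and positions are those of RefSeq on Sscrofa11.1, joined by symbol. No sequences were used here.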

Additional observations from a re-analysis of the deposited data

How the results depend on the processing

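Of the 9 genes, *HK2* was called under median-of-ratios, library size only and upper quartile scaling, DESeq2, both other filters, the replicate block and no fold limit, at log2 fold changes of 1.66 to 2.02. With each pig left out, the number of the 9 genes called ranged from 0 to 2, and with adjusted p under 0.05 it was 0 by edgeR and 0 by DESeq2. The wider pathway had 14 calls with library size only, 0 with adjusted p by edgeR, 1 (*PIK3CA*) with adjusted p by DESeq2, and 2 to 13 with each pig left out. These were 2 without WT replicate 2 (5.19% of all genes called in that fit), 4 without UCP1 KI replicate 2 (4.92%) or WT replicate 1 (7.84%), and 13 without WT replicate 3 (1541 of 13864 genes). There were 9 without UCP1 KI replicate 1 (6.74%). *PIK3CA* and *FOXO1* were the 2 of the 7 called genes that passed in all 6 of those fits. The adjusted DESeq2 rule, the settings for named pathway genes and *SOCS3*, and the paired single-gene differences were added after the data were seen. The sign of *INSR* turned with library size only (0.031) and, in log2(CPM + 1), with unscaled library sizes (0.044). Relative to the median of all genes, which that scaling shifted, *INSR* was at -0.18 with TMM and -0.21 with library size only, so its sign among genes did not turn.

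With each pig left out the log2 fold change ranged from -0.33 to -0.03 for *INSR*, 0.33 to 0.81 for *AKT2*, 1.53 to 2.29 for *HK2*, -0.9996 to 0.20 for *IRS1*, -0.13 to 0.40 for *IRS2*, -0.20 to 0.74 for *TBC1D1*, -0.25 to 0.51 for *TBC1D4*, -0.18 to 0.37 for *SLC2A4* and -0.20 to 0.57 for *HK1*. The difference in mean log2(CPM + 1) ranged from -0.79 to 0.10, -0.11 to 0.41, -0.048 to 0.65, -0.24 to 0.40, -0.19 to 0.37 and -0.32 to 0.63 for the last 6 of these genes. Differences in log2 ratio ranged from -1.21 to 0.0089 for *IRS1* to *IRS2*, -0.46 to 0.69 for *TBC1D1* to *TBC1D4* and 0.90 to 2.07 for *HK2* to *HK1*. The cause of these changes of sign was not tested beyond the pig left out.

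Whether the replicate numbers pair the pigs is not stated in the sources used here. Deviations from the group means correlated at 0.00, 0.09 and 0.28 for same-numbered pigs, and not every pig correlated best with its own number. With 3 pigs in a group these correlations cannot decide whether pigs were paired. With the number as a block 2 of the 9 genes were called, *HK2* (1.66) and *AKT2* (0.54, unadjusted p = 0.0495, edgeR), and 9 genes of the wider pathway, where 8.31% of all genes were called. *MAPKAP1* lost its call under the block (0.98), and *ASPSCR1* with all genes of any count (0.60, unadjusted p = 0.0520, edgeR). *PTPRF* lost its call with library size only (-0.78, unadjusted p = 0.120, edgeR). The depth limits none of the 9 genes, the lowest having 178 counts.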

Other observations

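*SOCS3*, an inhibitor of cytokine and insulin receptor signalling, had the largest log2 fold change of the wider pathway, 1.99 (standard error 1.0, unadjusted p = 0.0834, edgeR), and was not called in that fit. It was called with DESeq2 (unadjusted p = 0.0220), library size only (2.20), all genes of any count (2.01, unadjusted p = 0.0498, edgeR) and without UCP1 KI replicate 3 (2.55). It was not called on removal of UCP1 KI replicate 1 (1.12) or 2 (1.98), or of any single WT pig (1.68 to 2.485). It is named after its values were seen. Its levels were 165.1, 89.5 and 5.01 CPM in UCP1 KI replicates 1 to 3 and 19.6, 34.5 and 11.3 CPM in WT replicates 1 to 3, so the 2 UCP1 KI pigs with high *HK2* were also those with high *SOCS3*, and UCP1 KI replicate 3 was the lowest pig. *PTPN1*, the phosphatase that acts on INSR, ranged from 2.54 CPM in UCP1 KI replicate 3 to 39.2 CPM in UCP1 KI replicate 2 with a log2 fold change of 0.03.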
